A study of Mus musculus with 11 samples.

Results

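The genes described here are those of the potassium channels in mouse hippocampus, taken as every row of the count files whose symbol starts with Kcn. Of 98 such rows, Kcnj8, Kcnj13 and Kcne2 were set aside, as were 4 non-coding rows (Kcnd3os, Kcnmb4os1, Kcnmb4os2 and Kcnq1ot1), which left 91 members among 24421 genes. The rule reads the symbol and no measured value, while the family itself was picked with earlier results of these data known. Of the 91, 75 had enough counts to be tested, as had 15447 genes in all.

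Potassium channels let potassium leave the cell and so set the resting potential, end the action potential and limit repetitive firing. Voltage-gated channels (Kcna to Kcnd, Kcnh and Kcnq) open on depolarisation, Kcnm and Kcnn channels respond to calcium, Kcnt channels to sodium, Kcnj channels rectify inwardly, and Kcnk channels carry leak current. Auxiliary subunits do not form a pore but change where the channels go and how fast they open and close. In hippocampal pyramidal cells these families are known for the dendritic A-type current, the muscarine-sensitive M current and the afterhyperpolarisation.

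Hippocampal RNA came from 14 to 18 week old offspring of mothers dosed through the nose on gestational days 9, 12 and 15, with birth on day 21. Vehicle mothers received normal saline (5 libraries) and PM mothers particulate matter at 200 µg per kg (6 libraries). Groups follow each library's treatment label. The second of 2 deposit sets has a further protocol entry that names PM for its vehicle libraries too, against their treatment label of saline. No strain is named, no sex is given, and the labels do not say whether each library is from its own animal or litter. The p-values therefore reflect only how much these libraries vary among themselves, a spread that may be technical. The sets are vehicle 1 to 3 with PM 1 to 3 and vehicle 4 and 5 with PM 4 to 6.

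Libraries of the 2 groups differed in more than the members. Vehicle libraries held 6012116 to 12496651 gene counts and PM libraries 10938521 to 17763893. The share of counts outside any annotated feature was 60.9% to 62.0% in vehicle libraries. It was 18.8% to 21.4% in PM 1 to 3 and 29.3% to 34.0% in PM 4 to 6. The labels call the RNA of every library polyA while their protocol describes depletion of ribosomal RNA, so which RNA was sequenced is uncertain, and with it what this share and any change that varies with transcript length measure. Neuronal markers summed to 10150 to 11305 CPM (counts on a common library size) in vehicle and 9095 to 11409 CPM in PM. The 6 markers of dentate granule and CA pyramidal cells summed to 946 to 1084 CPM in vehicle and 575 to 678 CPM in PM. Markers of hippocampus were thus present in every library. By the test given below, 3 of the 8 neuronal markers were higher and 3 lower. Of the 6 dentate granule and CA markers 2 were higher and 3 lower. The choroid plexus transcript Ttr exceeded 1000 CPM in PM 1, PM 3 and vehicle 5. The Y-linked gene Ddx3y was at 48.5 CPM or more in vehicle 1 to 3 and in PM 1, 2, 4 and 5, and at 0.0753 CPM or less in the other 4, so in the second set both vehicle libraries lacked it and 2 of 3 PM libraries carried it. The part of any of these in the results below was not tested.

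Members were lower in PM more often than higher, and the largest changes were falls. Of the 75 tested members, 33 were lower (44.0%), 17 higher (22.7%) and 25 did not pass the test (edgeR quasi-likelihood test with the set as covariate, adjusted p threshold 0.05 over all tested genes). Each log2 change below is that fit's, PM over vehicle, with its SE after the ± sign and its edgeR adjusted p. Over all tested genes 34.5% were lower and 34.3% higher, or 68.8% in either direction. Falls of more than 2-fold were seen for 20 members (26.7%, against 16.6% of all tested genes) and rises of more than 2-fold for 5 (6.67%, against 13%). For 29 members (38.7%, against 26.4% of genes) the highest PM library was still under the lowest vehicle library, and the reverse held for 12 (16.0%, against 25.1%). The median log2 fold change of the tested members was -0.26, beside -0.0011 over all tested genes.

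**Figure D1:**
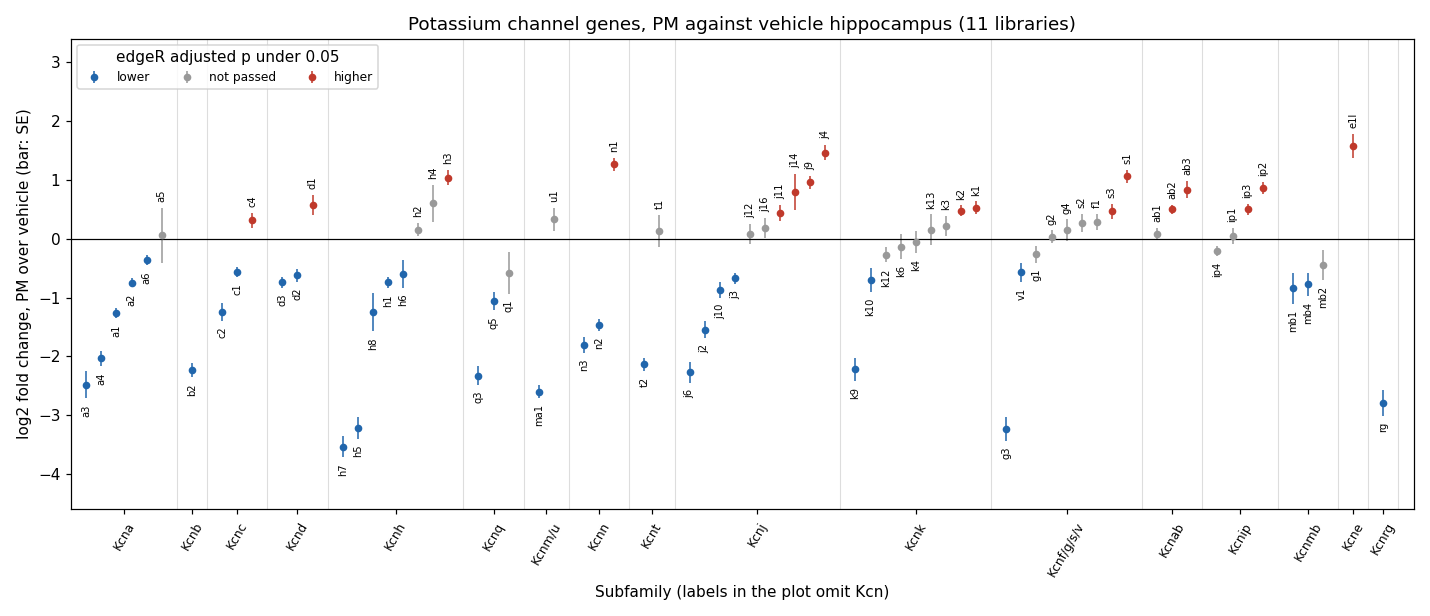
Log2 fold change of 71 of the tested members in PM relative to vehicle on the vertical axis, with its standard error, ordered within each subfamily along the horizontal axis. Blue points were lower, red points higher and grey points did not pass. The lowest values are those of Kcnh7, Kcng3 and Kcnh5, and the highest those of Kcne1l and Kcnj4.

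Falls outnumbered rises among pore-forming genes but not among auxiliary genes. Of 54 tested pore-forming members 28 were lower and 10 higher, with a median log2 fold change of -0.57. Of 11 tested auxiliary members of the Kcnab, Kcnip, Kcnmb and Kcne groups 2 were lower and 5 higher, with a median of 0.081. The shares of all tested genes were 34.5% lower and 34.3% higher. Summed over members, pore-forming genes took 4852 to 5116 CPM in vehicle and 2853 to 3434 CPM in PM libraries, and the auxiliary genes 933 to 1103 CPM in vehicle and 1266 to 1499 CPM in PM. Neither sum overlapped between the groups, while 26.4% of single tested genes lay wholly below vehicle in PM and 25.1% wholly above. Kcnab2 held most of the auxiliary sum in every library, and without it the sum was 399 to 444 CPM in vehicle and 545 to 585 CPM in PM. Whether the 2 kinds of gene differ was not tested. Once a trend on transcript length and GC content was taken out, 35 pore-forming members were lower and 6 higher. The auxiliary counts were then 2 lower and 3 higher, and the shares of all tested genes 34.1% and 31.9%.

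The members at the 2 ends of the range of pore-forming genes are shown by their promoters, since Kcnh7 fell most and Kcnj4 rose most of these. The sequences are RefSeq's on GRCm38.p6, from 250 bases before to 50 after the annotated start, 5′ to 3′ on the gene's own strand, and capitals mark the GC box GGGCGG or its reverse complement CCGCCC, a pair of motifs searched on both strands with overlaps merged.
Kcnh7 (chr2:63184238-63184537, minus strand): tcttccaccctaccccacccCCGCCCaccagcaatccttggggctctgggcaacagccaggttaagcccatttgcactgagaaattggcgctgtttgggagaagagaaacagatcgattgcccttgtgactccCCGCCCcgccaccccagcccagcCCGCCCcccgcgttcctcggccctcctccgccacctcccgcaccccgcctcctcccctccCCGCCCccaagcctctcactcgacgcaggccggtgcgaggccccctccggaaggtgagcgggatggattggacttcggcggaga
Kcnj4 (chr15:79505192-79505491, minus strand): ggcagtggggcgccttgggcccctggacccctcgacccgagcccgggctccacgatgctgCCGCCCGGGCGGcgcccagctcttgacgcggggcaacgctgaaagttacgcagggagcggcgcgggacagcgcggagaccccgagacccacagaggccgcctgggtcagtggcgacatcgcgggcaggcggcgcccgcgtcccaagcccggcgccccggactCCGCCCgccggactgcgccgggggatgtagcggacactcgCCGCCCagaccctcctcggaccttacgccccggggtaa
Both windows held 4 matches, and 67.7% of the bases of the Kcnh7 window and 76.0% of those of the Kcnj4 window were G or C. Promoters were found for 66 of the 91 members. A match was present in 57.1% of 21 promoters (12 genes) of members that were higher and in 59.4% of 32 promoters (26 genes) of members that were lower. All 32851 promoters of the table (27025 genes) had a match in 35.7%. Promoters of the same gene were counted separately. The median GC content of these promoters was 62.7%, 63.8% and 52.7%, and the motif itself holds only G and C. The shares with a match are close for rising and falling members, and a match is a description of the letters only.

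Kcna genes encode the Kv1 channels of axons and terminals. None of the 6 that were tested was higher, beside 34.3% of all tested genes. Kcna1, whose channel limits firing at axons, was 452, 473, 443, 432 and 467 CPM in the vehicle libraries, and PM libraries ran from 155 to 216 CPM with a median of 192 (log2 change -1.27 ± 0.085, adjusted p = 2.423e-08). Kcna4, which gives a rapidly inactivating A-type current, stood at 102, 111, 107, 110.4 and 107 CPM in vehicle and at 17.7 to 35.1 CPM with a median of 26.1 in PM (log2 change -2.03 ± 0.13, adjusted p = 1.877e-08). For both, every PM library was below every vehicle library. Kcna3 was scarcer and fell further, with a mean of 10.99 ± 1.73 CPM in vehicle (SD, n = 5) and 1.94 ± 0.741 CPM in PM (SD, n = 6), a 5.58-fold decrease. Means of other genes are given in the same way, with the SD over 5 vehicle and 6 PM libraries. Kcna2 fell from 311 ± 16.7 to 183 ± 22.1 CPM (log2 change -0.75 ± 0.075, adjusted p = 9.084e-07), but its value with the length and GC trend removed was 0.064 (adjusted p = 0.3551). Kcna6 fell 1.28-fold and Kcna5, at 1.28 ± 1.08 CPM in vehicle, did not pass.

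Kcnb2, a delayed rectifier, went from 36.3 ± 1.99 to 7.58 ± 1.81 CPM (log2 change -2.24 ± 0.12, adjusted p = 3.529e-09). The ranges of the groups did not overlap, and the call remained with the trend removed, at -0.996.

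Among the Kcnc genes, whose Kv3 channels repolarise fast-spiking cells, falls and a weak rise were seen. Kcnc2 fell from 194 ± 20.4 to 81.6 ± 20.2 CPM, 2.37-fold, and Kcnc1 from 234 ± 3.97 to 159.6 ± 19.8 CPM, 1.48-fold. Kcnc4 was called higher (log2 change 0.32 ± 0.13, adjusted p = 0.04098) with overlapping groups, and the call was lost with RLE scaling, without the set covariate and without each of 8 of the 11 libraries in turn. Its value turned to -0.40 (adjusted p = 0.01517) with the trend removed.

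The dendritic A-type channels Kcnd2 (Kv4.2) and Kcnd3 (Kv4.3) fell. Of the 4 tested genes of their calcium-binding KChIP subunits 2 rose, beside 34.3% of all tested genes. Kcnd2 was 184, 218, 202, 188 and 193 CPM in vehicle and 86.7 to 161 CPM with a median of 129 in PM (log2 change -0.62 ± 0.11, adjusted p = 0.0001594), without overlap. Kcnd3 fell 1.67-fold to 81.7 ± 11.7 CPM. Kcnip2 (KChIP2) rose from 119.7 ± 6.37 to 222 ± 35.5 CPM (log2 change 0.87 ± 0.10, adjusted p = 5.06e-06), with every PM library above every vehicle library, and Kcnip3 (KChIP3) rose 1.41-fold. Kcnip4 (log2 change -0.21 ± 0.089, adjusted p = 0.05404, past the threshold with DESeq2 and with RLE scaling) and Kcnip1 (0.044, adjusted p = 0.7901) did not pass. With the trend removed Kcnip2 kept its call at 0.33 and Kcnip3 did not (-0.0092, adjusted p = 0.9358). Kcnd1, an X-linked and scarce member of the family, was higher at 9.75 ± 2.17 against 6.26 ± 0.889 CPM (log2 change 0.58 ± 0.17, adjusted p = 0.00807), in groups that overlapped, and not with the trend removed (adjusted p = 0.05984).

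The Kcnh family, made of the Eag, Erg and Elk channels, held 2 of the 3 largest falls and 1 of the 5 rises of more than 2-fold. Kcnh7 (Erg3; chromosome 2, 62693414 to 63184287, GRCm38) was 58.4, 66.2, 76.99, 70.3 and 57.9 CPM in vehicle. In PM it ran from 2.77 to 7.01 CPM with a median of 6.16, an 11.6-fold decrease (log2 change -3.54 ± 0.18, adjusted p = 3.099e-09). Kcnh5 (Eag2) fell 9.28-fold, from 17.5 ± 1.61 to 1.84 ± 0.595 CPM. For both, every PM library was below every vehicle library. Kcnh1 (Eag1) fell 1.67-fold, and the scarce Kcnh6 and Kcnh8 were lower too, with log2 changes of -0.59 and -1.25. Kcnh3 (Elk2) went the other way, at 47.1, 50.5, 55.2, 45.8 and 43.6 CPM in vehicle and 79.6 to 132 CPM with a median of 99.1 in PM (log2 change 1.04 ± 0.13, adjusted p = 9.183e-06), each PM library above the highest of vehicle. Kcnh2 (0.15, adjusted p = 0.241) and Kcnh4 (0.60, adjusted p = 0.1004) did not pass.

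**Figure D2:**
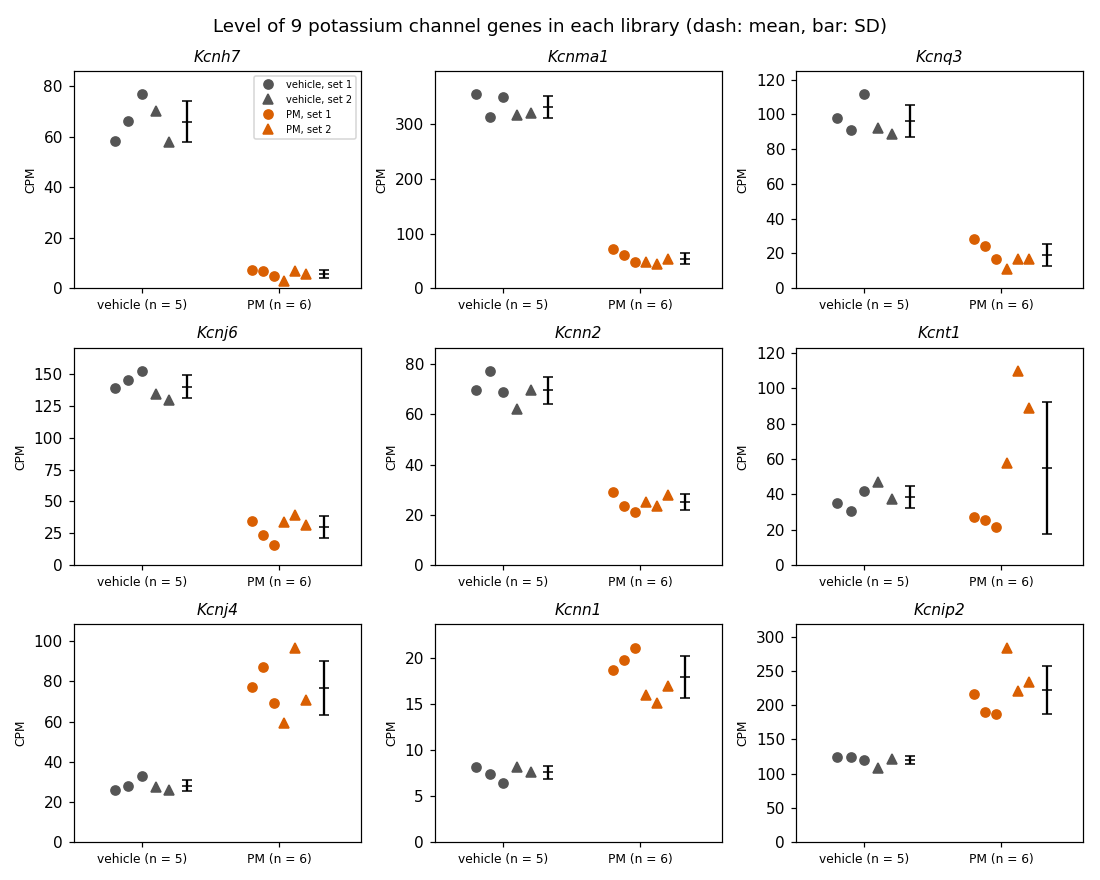
Level in CPM (vertical axes, from 0) of 9 members in each vehicle and PM library, with circles for the first and triangles for the second deposit set and the mean ± SD beside each group. Kcnh7, Kcnma1, Kcnq3, Kcnj6 and Kcnn2 lie lower in every PM library, Kcnj4, Kcnn1 and Kcnip2 higher, and Kcnt1 lies below vehicle in PM 1 to 3 and above it in PM 4 to 6.

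Kcnq3 and Kcnq5, genes of the M current that muscarinic receptors close, both fell. Kcnq3 was 98.1, 90.7, 112, 92.02 and 88.9 CPM in vehicle and 11.02 to 28.5 CPM with a median of 16.7 in PM (log2 change -2.33 ± 0.16, adjusted p = 2.583e-08), without overlap. Kcnq5 fell from 164 ± 12.6 to 78.05 ± 19.5 CPM (log2 change -1.06 ± 0.16, adjusted p = 3.636e-05). With the trend removed Kcnq3 was still lower at -1.27. Kcnq1, at 0.889 ± 0.41 CPM in vehicle, did not pass.

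Of 6 tested genes of calcium- and sodium-activated channels 4 fell and Kcnn1 rose (34.5% and 34.3% of all tested genes), while Kcnt1 did not pass. Kcnu1, a relative of Kcnma1 gated by voltage and pH, did not pass either (0.33, adjusted p = 0.1371). Kcnma1, the pore of the large-conductance BK channel (chromosome 14, 23289431 to 24014491, GRCm38), was 355, 314, 351, 318 and 322 CPM in vehicle and 44.4 to 72.1 CPM with a median of 50.7 in PM, a 6.07-fold decrease (log2 change -2.60 ± 0.11, adjusted p = 1.203e-09). Its neuronal subunit gene Kcnmb4 fell from 8.23 ± 1.06 to 4.81 ± 1.41 CPM (log2 change -0.77 ± 0.19, adjusted p = 0.002978), and Kcnmb1 from 1.92 ± 0.84 to 1.09 ± 0.146 CPM (log2 change -0.84 ± 0.27, adjusted p = 0.01222). The Kcnmb1 call was lost without vehicle replicate 5, with a replicate block, and without the libraries with Ttr above 1000 CPM. Of the exon bases of Kcnmb4, 20.8% overlap Kcnmb4os2 and 10.7% Kcnmb4os1 on the opposite strand, and the sources used here do not give the strand setting of the counting, so its values are uncertain. Smaller overlaps of this kind, of at most 5.98% of exon bases, were found for other members. Among them were Kcnma1 (5.98%), Kcnh7 (4.57%) and Kcnn2 (3.80%).

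The small-conductance SK genes split. Kcnn2 fell from 69.5 ± 5.43 to 25.1 ± 2.99 CPM (log2 change -1.47 ± 0.099, adjusted p = 2.578e-08) and Kcnn3 from 38.3 ± 4.71 to 10.9 ± 2.15 CPM (log2 change -1.80 ± 0.13, adjusted p = 5.88e-08). Kcnn1 rose, from 8.13, 7.41, 6.44, 8.11 and 7.58 CPM in vehicle to 15.1 to 21.1 CPM with a median of 17.8 in PM (log2 change 1.27 ± 0.11, adjusted p = 3.356e-07). For all 3 the groups did not overlap, and all 3 calls remained with the trend removed. The sodium-activated Kcnt2 (Slick) fell from 77.98 ± 5.58 to 17.7 ± 2.57 CPM (log2 change -2.14 ± 0.11, adjusted p = 2.625e-09). Kcnt1 (Slack) did not pass over all libraries (log2 change 0.13 ± 0.28, adjusted p = 0.6885). PM 1 to 3 were at 27.0, 25.2 and 21.5 CPM and PM 4 to 6 at 57.7, 109.8 and 88.7 CPM, below and above the 30.8 to 46.9 CPM of vehicle.

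Inward rectifiers held rises and falls in equal number, 4 of each among 10 tested. Over all tested genes 34.3% were higher and 34.5% lower, also near balance. With the length and GC trend removed 2 of the 10 were higher and 5 lower. The GIRK channels, opened by G protein-coupled receptors, showed both directions. Kcnj6 (GIRK2) was 139, 146, 153, 134 and 129.5 CPM in vehicle and 16.1 to 39.3 CPM with a median of 32.4 in PM (log2 change -2.27 ± 0.18, adjusted p = 8.19e-08). Kcnj3 (GIRK1) fell less, from 267 ± 17.2 to 167 ± 27.6 CPM (log2 change -0.67 ± 0.093, adjusted p = 1.992e-05), and Kcnj9 (GIRK3) rose from 44.3 ± 2.42 to 85.8 ± 13.3 CPM (log2 change 0.96 ± 0.11, adjusted p = 2.67e-06). None of these 3 overlapped between the groups. In vehicle libraries the counts of Kcnj6 exceeded those of Kcnj9, with a log2 ratio of 1.66 ± 0.12, and in PM they were fewer, at -1.57 ± 0.55.

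Kcnj4 (Kir2.3) had the largest rise of a pore-forming gene, from 25.9, 27.9, 32.6, 27.3 and 25.9 CPM in vehicle to 59.1 to 96.8 CPM with a median of 73.95 in PM (log2 change 1.47 ± 0.13, adjusted p = 2.468e-07). Its relative Kcnj2 (Kir2.1) fell from 23.5 ± 3.18 to 7.90 ± 1.70 CPM, 2.92-fold. Kcnj11, the pore of the ATP-sensitive channel, and Kcnj14 were higher by 0.44 and 0.79 on the log2 scale, in groups that overlapped, and neither passed with the trend removed.

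Kcnj10 (Kir4.1), the potassium-buffering channel of astrocytes, was 252, 261, 248, 252 and 248 CPM in vehicle and 97.1 to 198 CPM with a median of 132 in PM (log2 change -0.87 ± 0.14, adjusted p = 6.673e-05). PM 1 to 3 were at 163, 198 and 183 CPM and PM 4 to 6 at 97.7, 101.5 and 97.1 CPM, all below vehicle. The 6 astrocyte markers of the list, summed, were 6695 to 7041 CPM in vehicle, 5158 to 5569 CPM in PM 1 to 3 and 2736 to 2950 CPM in PM 4 to 6, and 2 of the 6 were higher and 2 lower. Slc1a2, a glutamate transporter, made up 5537 to 5866 CPM of the sum in vehicle and 1769 to 3662 CPM in PM. The other 5 markers summed to 1135 to 1231 CPM in vehicle, 1689 to 1957 CPM in PM 1 to 3 and 967 to 1114 CPM in PM 4 to 6, and Gfap and Aldh1l1 were higher by 1.14 and 1.38 on the log2 scale. Their part in the change of Kcnj10 was not tested, and fewer cells of a type and less RNA per cell cannot be told apart in these tissue samples. Kcnj16 (Kir5.1), which joins Kcnj10 in heteromers, did not pass (0.18, adjusted p = 0.3538).

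Among the leak channels of the Kcnk family 9 of 14 members were tested, and 2 were higher, 2 lower and 5 did not pass. The shares over all tested genes were 34.3% higher and 34.5% lower. With the trend removed 1 of the 9 was higher and 4 were lower. Kcnk9 (TASK-3) fell from 18.04, 18.7, 20.02, 18.8 and 19.5 CPM in vehicle to 1.73 to 5.32 CPM with a median of 4.29 in PM (log2 change -2.22 ± 0.20, adjusted p = 3.547e-07), without overlap. Kcnk10 (TREK-2) was lower, with a log2 change of -0.70, in groups that overlapped, and did not pass with the trend removed (-0.20, adjusted p = 0.3715). Kcnk1 (TWIK-1) rose from 51.5 ± 3.72 to 73.3 ± 11.9 CPM (log2 change 0.53 ± 0.10, adjusted p = 0.000481) and Kcnk2 (TREK-1) from 50.7 ± 4.49 to 69.8 ± 8.22 CPM (log2 change 0.47 ± 0.093, adjusted p = 0.0004422). Of these 2 rises that of Kcnk2 was past the threshold with the trend removed (0.34) and that of Kcnk1 was not (0.11).

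Modifier subunits (Kcnf, Kcng, Kcns and Kcnv) form no channel alone but join other voltage-gated subunits. Kcng3 (Kv6.3) had the second largest fall of all members, from 25.4, 22.8, 24.9, 24.3 and 21.2 CPM in vehicle to 1.25 to 3.43 CPM with a median of 2.97 in PM, 9.42-fold (log2 change -3.24 ± 0.20, adjusted p = 1.33e-08). Kcns1 (Kv9.1) rose from 6.17 ± 0.748 to 12.8 ± 1.11 CPM (log2 change 1.06 ± 0.12, adjusted p = 1.989e-06), and Kcns3 was higher (log2 change 0.47). Kcnv1 (Kv8.1) was lower (log2 change -0.57), in groups that overlapped. With the trend removed neither Kcns1 (0.25, adjusted p = 0.07754) nor Kcnv1 (-0.29, adjusted p = 0.05578) passed. The other 5 tested modifiers did not pass. Kcnrg, a soluble protein known to suppress voltage-gated potassium channels, fell from 5.56 ± 1.05 to 0.823 ± 0.252 CPM, 6.92-fold.

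Of the 3 beta subunit genes of Kv1 channels 2 rose, while 5 of the 6 tested pore genes fell. Among all tested genes the shares were 34.3% higher and 34.5% lower. With the trend removed 1 of the 3 beta subunit genes was higher and 4 of the 6 pore genes were lower. Kcnab2, the member with the highest level per length, was 638, 598, 659, 534 and 537 CPM in vehicle and 721 to 948 CPM with a median of 798 in PM (log2 change 0.50 ± 0.07, adjusted p = 2.424e-05). Kcnab3 rose from 13.4 ± 1.43 to 23.8 ± 4.99 CPM (log2 change 0.84 ± 0.15, adjusted p = 0.0001663). Kcnab1 did not pass (0.081, adjusted p = 0.4885). With the trend removed these calls changed, and Kcnab1 was higher (0.67, adjusted p = 1.684e-05) and Kcnab2 (0.07, adjusted p = 0.4191) and Kcnab3 (0.26, adjusted p = 0.1197) did not pass. Kcne1l, an X-linked subunit of the Kcne family, had the largest rise of any member, from 1.91 ± 0.375 to 5.59 ± 1.80 CPM (log2 change 1.59 ± 0.20, adjusted p = 9.773e-06).

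Per kilobase of annotated exon, which allows genes to be compared, the order of the most abundant members differed between groups. In vehicle it opened with Kcnab2 at 106 ± 10.3 CPM per kb and Kcna1 at 94.8 ± 3.51 (SD, n = 5), which differ by little more than the SD of Kcnab2, followed by Kcnj3 at 51.2 ± 3.30 and Kcnj10 at 46.6 ± 1. In PM it opened with Kcnab2 at 148 ± 15.98 (SD, n = 6), Kcnip2 at 63.98 ± 10.2, Kcna1 at 39.2 ± 4.44 and Kcnj4 at 35.7 ± 6.28, the last of which was 24th in vehicle. Kcnma1 went from 17th to 44th place, from 19.6 ± 1.16 to 3.19 ± 0.618 CPM per kb. These places rest on annotated lengths and not on the transcripts present.

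Ratios of subunits that share a complex were compared within each library, where the scaling of libraries cancels. The 7 pairs were chosen after the values of the genes were seen, from known complexes and families. They are therefore given as a description, with no test. In all 7 the PM libraries did not overlap the vehicle libraries. The first gene of each pair is the one with the lower log2 change, so the downward direction followed from the order chosen. How often ratios of other gene pairs fail to overlap was not computed. Among single tested genes, 26.4% lay wholly below vehicle in PM and 25.1% wholly above. The Kcnj6 to Kcnj3 ratio in PM minus that in vehicle was -1.59 on the log2 scale, with -2.14 in the first and -1.02 in the second set. Kcnj6 to Kcnj9 stood at -3.23. Kcnd2 to Kcnip2 was at -1.54, Kcna1 to Kcnab2 at -1.76, Kcnma1 to Kcnmb4 at -1.82, Kcnj10 to Kcnj16 at -1.05 and Kcnt2 to Kcnt1 at -2.39. The subunits of these pairs, picked with their values known, changed unequally. The part of their unequal transcript length and GC content was not tested.

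**Figure D3:**
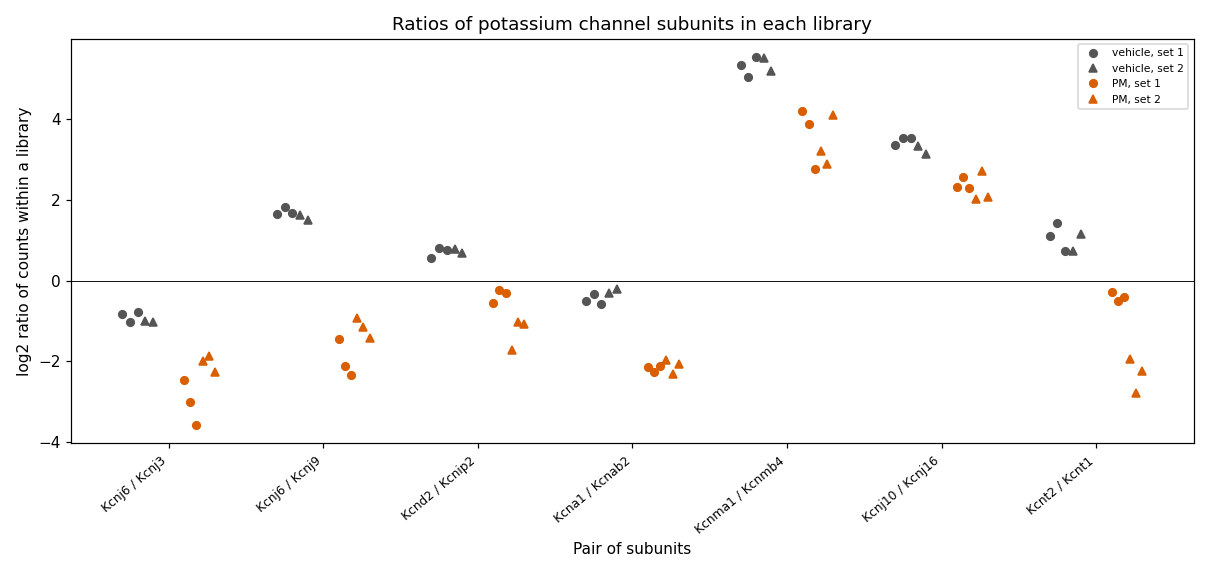
Log2 ratio of counts (vertical axis) of 7 pairs of subunits in each library, grey for vehicle and orange for PM, with circles for the first and triangles for the second deposit set. In every pair the 6 PM libraries lie apart from the 5 vehicle libraries and below them. The pairs were chosen after the values were seen, with the gene of lower log2 change first.

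Neighbouring members changed alike in some clusters and not in others. Kcnj9 and Kcnj10 lie 11892 bases apart on chromosome 1 and had log2 changes of 0.96 and -0.87. Kcnj16 and Kcnj2, 38196 bases apart on chromosome 11, stood at 0.18 (not passed) and -1.55. In the Kcna cluster on chromosome 6 Kcna1 and Kcna6 fell and Kcna5 did not pass, and on chromosome 3 Kcna3 (-2.48) and Kcna2 (-0.75) both fell.

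Fold changes of the members varied with the length and base composition of their transcripts. Members that were lower had a median of 6895 annotated exon bases and 46.5% GC, and members that were higher 3546 bases and 57.0% GC. Across the 75 members the fold change had a Spearman rho of -0.45 with length and 0.55 with GC content, beside -0.39 and 0.36 over 15315 genes. Genes within a library share its depth and composition, so these are descriptions. Of the 25 longest members (5586 to 16976 bases) 18 were lower and 1 higher, and of the 25 shortest (1543 to 3806 bases) 5 were lower and 11 higher.

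Members still fell more often than they rose when that trend was removed. A smooth trend of each library's counts on length and GC content, fitted over all genes, was taken out through offsets, after which 41 members were lower (54.7%) and 11 higher (14.7%), against 34.1% and 31.9% of all tested genes. The share of rises among the called members was 34.0% before and 21.2% after. The median was -0.45, beside -0.034 over all genes. Of the 33 members lower as counted 30 were lower in both fits, and of the 17 higher 8 were higher in both, while Kcnc4 turned from higher to lower. Kcnh7 then stood at -2.30, Kcng3 at -3.63, Kcnh5 at -3.36, Kcnma1 at -1.45, Kcnj6 at -1.96 and Kcna3 at -3.31. Kcng3, Kcnh5 and Kcna3, with 3356, 4058 and 1902 exon bases, were lower still after the removal, and Kcnd2 was at -0.38, Kcnd3 at -0.29, Kcnh3 at 0.54, Kcnj4 at 0.67, Kcnj9 at 0.42 and Kcne1l at 0.82, each less far from 0 than as counted. The long Kcnh7 and Kcnma1, with 15226 and 16976 exon bases, were less low.

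**Figure D4:**
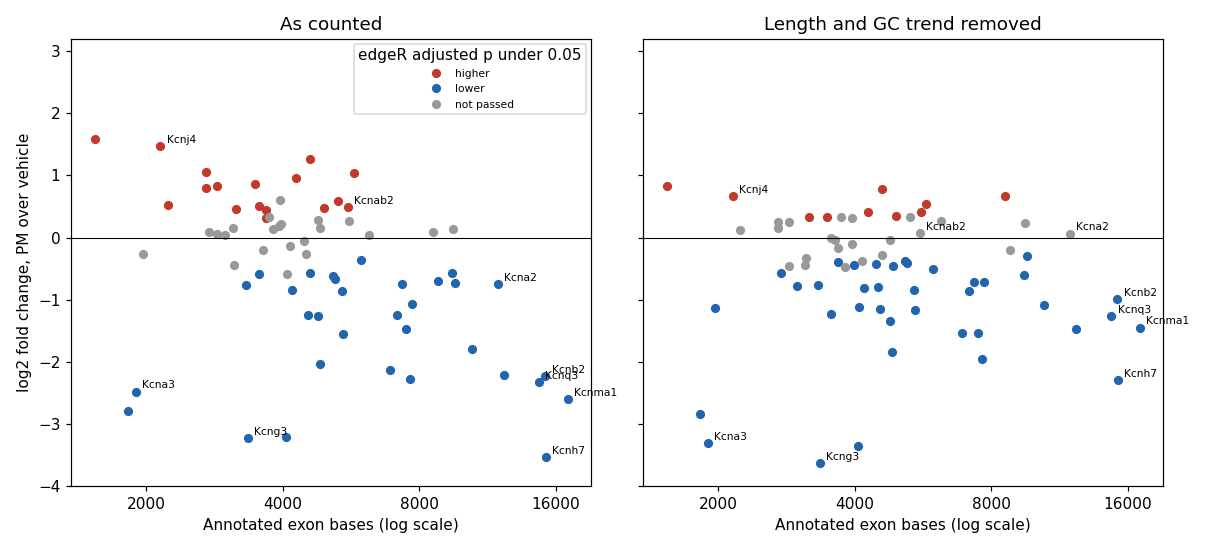
Log2 fold change in PM relative to vehicle (vertical axis) against annotated exon bases (horizontal axis, log scale) of 71 of the tested members, as counted on the left and after removal of the length and GC trend on the right. Long members lie lower on the left, and on the right 38 of these members are lower (blue) and 10 higher (red).

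Members past the threshold in both deposit sets mostly had the same direction. In the first set 31 members were lower and 19 higher (35.4% and 35.2% of all tested genes, 70.6% in either direction), and in the second 35 and 16 (32.6% and 31.3%, 63.9% in either direction). Of these, 27 were lower in both sets (36.0% of the tested members, against 24.7% of genes) and 12 higher in both (16.0%, against 23.5%). Kcnh7 was at -3.44 and -3.66, Kcnma1 at -2.51 and -2.72, Kcnq3 at -2.10 and -2.61 and Kcnj4 at 1.44 and 1.51, with no difference between sets detected for these 4 genes (adjusted p = 0.646, 0.4113, 0.1621 and 0.8441).

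The effect differed between sets for 15 members (20%, against 31.3% of all tested genes), the second set being higher for 4 and lower for 11. This count was 8 without vehicle replicate 5 and 9 without vehicle replicate 1. PM 1 to 3 and PM 4 to 6 also differed in the share of counts outside any annotated feature. Y-linked Ddx3y was at 48.5 CPM or more in vehicle 1 to 3 and at 0 in vehicle 4 and 5, while PM libraries of both sets were mixed. The part of that share and of the presence of Ddx3y in these differences was not tested. Kcnt1 went from -0.55 to 1.03 (difference adjusted p = 0.003227). Kcnk13, a microglial leak channel, went the other way, from 0.79 to -0.72 (adjusted p = 0.003539). The 6 microglial markers summed to 161 to 181 CPM in vehicle, 285 to 295 CPM in PM 1 to 3 and 195 to 238 CPM in PM 4 to 6, 4 of them higher and 0 lower, and their part in the values of Kcnk13 was not tested. Kcnt1 and Kcnk13 were the 2 members past the threshold in opposite directions in the sets (2.67% of those tested, against 3.2% of genes). Kcnj10 fell in both sets but further in the second, -0.48 against -1.34 (adjusted p = 0.0002489).

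**Figure D5:**
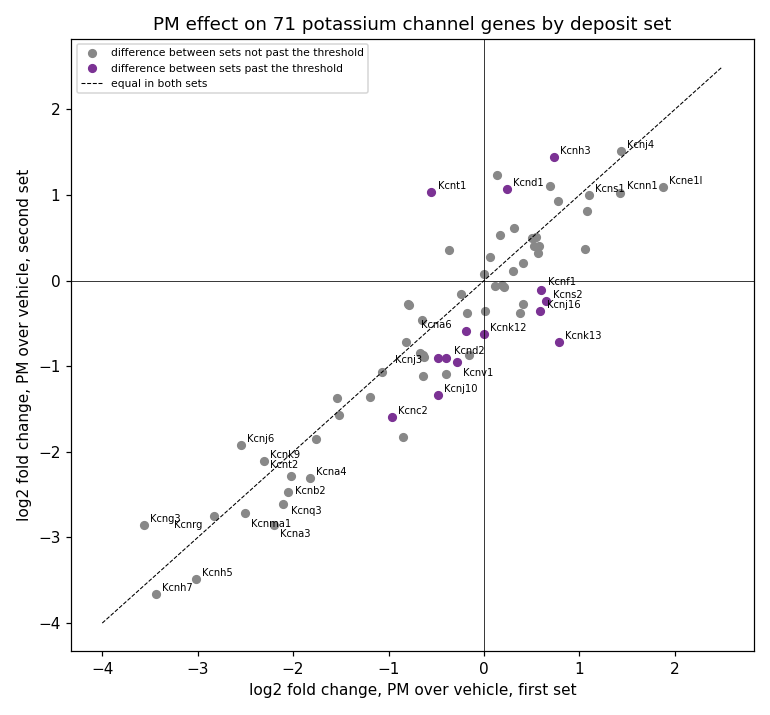
Log2 fold change of PM over vehicle in the first (horizontal axis) and second deposit set (vertical axis) for 71 of the tested members, with the 14 of them whose effect differed between sets in purple. Most points lie near the line of equal change, and Kcnt1 and Kcnk13 lie far from it.

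Proteins that work with these channels but carry other names were read from a list of 23 genes, of which 22 were tested. Of these 10 were lower, 4 higher and 8 did not pass, with a median of -0.27. Over all tested genes 34.5% were lower and 34.3% higher. Hcn4, a scarce pacemaker channel, fell from 1.95 ± 0.917 to 0.602 ± 0.226 CPM (log2 change -1.72 ± 0.37, adjusted p = 0.0008603). Gnb5, a G protein subunit that acts with RGS proteins on GIRK channels, rose 1.76-fold (log2 change 0.82 ± 0.086, adjusted p = 1.475e-06), and Hcn2 1.62-fold (log2 change 0.70 ± 0.08, adjusted p = 3.524e-06). With the trend removed 8 partner genes were lower and 7 higher, beside 34.1% and 31.9% of all tested genes. Hcn2 did not then pass, at -0.11 (adjusted p = 0.1168). The Kv4 partner Dpp6 fell from 497 ± 22.3 to 282 ± 32.9 CPM, and its relative Dpp10 did not pass (-0.072, adjusted p = 0.7008) but was higher with the trend removed (1.20, adjusted p = 1.105e-05).

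The 16 members that were not tested were Kcna7, Kcna10, Kcnn4, Kcnj1, Kcnj5, Kcnj15, Kcnk5, Kcnk7, Kcnk15, Kcnk16, Kcnk18, Kcnv2, Kcnmb3, Kcne1, Kcne3 and Kcne4. Kcnj1 and Kcnk16 had 0 counts in all 11 libraries, which allows up to 3 counts, or 0.187 to 0.487 CPM, in a library. Among the rest Kcne4 reached 65 counts over the PM libraries together and 12 over the vehicle libraries, and Kcnj5 (GIRK4) 38 and 15.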

How the data were processed

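The deposited files hold raw counts per gene symbol with 5 HTSeq summary lines, which were left out of library sizes and tests. Per the submitters' processing notes the authors used FastQC 0.11.9, Trimmomatic 0.36, STAR, SAMtools 1.9, Picard 2.9.2 and HTSeq 0.9.1. The builds named there are mm10 and hg19. Tests used edgeR 4.0.16 under R 4.3.3 (filterByExpr with the design and a minimum count of 10, TMM, robust quasi-likelihood test, set as covariate, Benjamini-Hochberg adjustment over 15447 genes). Set-wise effects and their difference share 1 fit with 4 cells (group by set). SE was taken as |log2 change| over the root of the F statistic. CPM use TMM-scaled library sizes. Lengths, GC content and positions came from GENCODE M21 (GRCm38, the assembly of mm10), to which 98.5% of 24421 symbols matched. Alternatives were RLE scaling, DESeq2 1.42.0, no count filter, no set covariate, a length and GC trend removed with mgcv 1.9.3, a replicate block, each library left out, and each set alone. The steps were tested on simulated data. Count ratios, described without a test, used a pseudocount of 0.5. Precision depends on depth, 6012116 to 17763893 gene counts a library.

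Members, gene lists and pairs were chosen with earlier results of these data known. Kcnmb4os1 and Kcnmb4os2 were treated as non-coding although their symbols end in a digit. Values by library were given for 39 genes at most, those named by rule, some other genes not being reported here: the most abundant member of each subfamily, its largest rise and fall at a mean of 1 CPM or more, and a fixed set known in hippocampus. Others were named for small counts or their families after their values were seen.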

Additional observations from a re-analysis of the deposited data

Results flagged for a closer look

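The effect of PM differed between the deposit sets, by the interaction in the joint edgeR fit, for 8 of the 39 genes described by rule. The value in the second set minus that in the first was 1.58 for Kcnt1, 0.83 for Kcnd1 and 0.71 for Kcnh3. It was -0.86 for Kcnj10, -0.67 for Kcnv1, -0.63 for Kcnc2, -0.51 for Kcnd2 and -0.42 for Kcnj3. The adjusted p ran from 0.0002489 for Kcnj10 to 0.04911 for Kcnv1. The direction itself differed for Kcnt1. Kcnh3 was higher and Kcnj10, Kcnc2, Kcnd2 and Kcnj3 were lower in both sets, and Kcnd1 (0.24) and Kcnv1 (-0.28) did not pass in the first set. Kcnd1 is X-linked, and the part in its values of which libraries carried Y-linked Ddx3y was not tested.

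One library stood apart within its group. Kcnk2 was 58.7 CPM in vehicle replicate 2 and 48.3 to 49.1 CPM in the other 4. Chance flags about 1 in 20 of such groups, and 78 were looked at.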

How the results depend on the processing

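Of 33 lower and 17 higher members, leaving out 1 library gave 32 to 35 lower and 15 to 18 higher, and without the 3 libraries with Ttr above 1000 CPM, a choice made after seeing the data, 32 and 15. RLE scaling gave 34 and 16, DESeq2 33 and 17, no count filter 35 and 19, no set covariate 33 and 16. The replicate block gave 31 and 15. Whether the replicate numbers pair libraries is not given. Deviations of same-numbered libraries from their group and set means correlated at -0.197 to 0.015. This cannot exclude pairing, since deviations of so few libraries per group and set depend on one another. With the length and GC trend removed 41 were lower and 11 higher, and with the block as well 37 and 10. In the second set 8 were then higher, against 16. Left-out libraries gave 28 to 33 lower and 17 to 20 higher in the first set, 31 to 35 and 11 to 17 in the second, and 8 to 19 differing between sets. Partner genes (10 lower, 4 higher) were 9 to 11 lower and 3 or 4 higher with a library left out, 8 and 3 with the block, 7 and 3 without the libraries with high Ttr, and 7 were higher with the trend removed, with or without the block. Among named genes, Kcna2 (0.064, and 0.057 with the block) and Kcnc4 (-0.40 and -0.42) changed sign with the trend removed. Kcnt1, not passed, was at -0.053 without PM replicate 5, -0.035 without vehicle replicate 4 and -0.13 without vehicle replicate 5, within a range of -0.13 to 0.27 over left-out libraries. Kcnab1, not passed, was at -0.020 without vehicle replicate 1, in a range of -0.020 to 0.12. The cause was not tested. Of the 10 members with the highest level per length, 9 stayed with the longest transcript as length. Depth limits the 16 members that were not tested.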
